A study of Mus musculus with 16 samples.

Results

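The molecular chaperones and the transcripts of the endoplasmic reticulum (ER) stress and heat shock responses were followed in the ventricles of lactating and nulliparous mice. The members are 36 listed genes, of the 21154 genes that the arrays read through a RefSeq accession. A probe was found for 35 of the 36. The exception was Hspa1b, which no probe named by its accession, and the probe named for the near-identical Hspa1a may read both. By the pathway they serve, 20 of the listed genes were grouped with the ER, 14 with the cytosol and 2 with mitochondria. These groups are called compartments below. The ER group includes 6 stress response regulators (Xbp1, Atf4, Atf6, Ddit3, Trib3 and Chac1), and not all of their products act in the ER. The brightest probe stood for a gene with several. All 35 probes were well above background on all 16 arrays, so none depended on a filter.

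RNA came from ventricular tissue of female mice and was measured on one-colour Agilent arrays, 1 mouse per array. There were 4 groups of 4 independent mice: Npr1-/- mice after 2 weeks of lactation (lactating KO), Npr1+/+ mice after 2 weeks of lactation (lactating WT), nulliparous Npr1-/- mice (nulliparous KO) and nulliparous Npr1+/+ mice (nulliparous WT). Npr1 encodes the guanylyl cyclase receptor for the atrial and B-type natriuretic peptides, and the series asks how its loss bears on the growth of the heart that comes with lactation. Strain, age and the construction of the knockout allele are not given in the sources used here.

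In the ER, BiP (Hspa5) and GRP94 (Hsp90b1) fold secretory and membrane proteins, and when unfolded proteins gather there the sensors IRE1, ATF6 and PERK raise these chaperones, the degradation machinery and, through ATF4, stress genes such as Ddit3. In the cytosol the factor HSF1 drives the heat shock genes: HSP70, HSP90, HSP110, their J-domain partners and the small heat shock proteins, which are abundant in heart muscle and hold sarcomere and cytoskeletal proteins in a foldable state. Mitochondria fold imported proteins in a cage made of HSP60 (Hspd1) with its lid HSP10 (Hspe1), a pair of genes that lie head to head and share a promoter.

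Promoter windows were searched for the elements of the 2 arms. RefSeq windows (GRCm38.p6, 250 bases before to 50 after the gene start) were at hand for 30 of the members and not for Atf6, Hsp90aa1, Hsp90ab1, Hspa8, Cryab and Hsf1. The ER stress response element, CCAAT then any 9 bases then CCACG on either strand, stood in the windows of 7 of 19 ER members (Hspa5, Hsp90b1, Calr, Canx, Pdia6, Dnajc3 and Syvn1) and in none of the 9 cytosolic or 2 mitochondrial members. Of all 27025 genes with a window, 0.137% held it. A second form, ATTGG, 1 base, CCACG, stood in those of Herpud1 and Dnajb11, against 0.0444% of all genes. A heat shock element of 3 inverted units (GAA, 2 bases, TTC, 2 bases, GAA, or the same starting with TTC) stood in those of both mitochondrial members (Hspd1 and Hspe1), of 1 of the 9 cytosolic members (Hsph1) and of none of the 19 ER members, and in 0.662% of all genes. A match describes the letters only, and no match says nothing of a factor's binding elsewhere.

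These 4 windows are printed as examples: Hspa5 and Hsp90b1 carry the ER element, and Hspe1 and Hsph1 the heat shock element. They were chosen partly by how the genes moved, so they cannot link an element to a direction, and Hspa5 was called in neither genotype. Each runs 5′ to 3′ on the gene's strand, with the matched elements in capitals. In Hspa5 the match begins 65 bases before the gene start, and in Hsph1 it lies after the gene start. The Hspe1 window shares 285 of its 300 bases with one of the Hspd1 windows on the opposite strand. Its run of 18 capitals holds 2 overlapping matches that lie 89 to 72 bases before the Hspe1 start.
Hspa5, chr2:34771840-34772139, plus strand: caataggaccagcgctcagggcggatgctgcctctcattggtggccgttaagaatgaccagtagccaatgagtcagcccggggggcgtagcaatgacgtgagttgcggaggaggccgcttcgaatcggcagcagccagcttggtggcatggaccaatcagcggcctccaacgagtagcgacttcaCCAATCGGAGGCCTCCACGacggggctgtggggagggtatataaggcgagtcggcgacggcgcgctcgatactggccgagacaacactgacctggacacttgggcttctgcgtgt
Hsp90b1, chr10:86705395-86705694, minus strand: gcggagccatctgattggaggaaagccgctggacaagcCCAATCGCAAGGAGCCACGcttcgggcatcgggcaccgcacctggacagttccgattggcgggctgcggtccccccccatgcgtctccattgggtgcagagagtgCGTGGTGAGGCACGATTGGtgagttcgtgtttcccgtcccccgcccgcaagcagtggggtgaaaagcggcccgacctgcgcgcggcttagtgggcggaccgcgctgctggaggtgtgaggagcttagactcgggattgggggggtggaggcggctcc
Hspe1, chr1:55087898-55088197, plus strand: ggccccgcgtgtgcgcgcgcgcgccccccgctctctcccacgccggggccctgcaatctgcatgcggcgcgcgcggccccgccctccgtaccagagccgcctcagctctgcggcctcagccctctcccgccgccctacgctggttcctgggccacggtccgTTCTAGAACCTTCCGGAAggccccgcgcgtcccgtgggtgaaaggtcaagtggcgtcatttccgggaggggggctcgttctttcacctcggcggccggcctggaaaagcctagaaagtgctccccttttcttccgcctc
Hsph1, chr5:149636266-149636565, minus strand: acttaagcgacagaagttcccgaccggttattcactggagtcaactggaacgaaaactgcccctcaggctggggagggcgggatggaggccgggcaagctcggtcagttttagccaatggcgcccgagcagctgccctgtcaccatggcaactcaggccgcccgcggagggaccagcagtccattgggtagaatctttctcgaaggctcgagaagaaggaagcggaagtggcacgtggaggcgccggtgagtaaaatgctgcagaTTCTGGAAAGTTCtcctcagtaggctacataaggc
The other motifs searched were more common among all genes. CCACG alone, which is contained in both ER elements, stood in 35.5% of all genes with a window and in 15 of 19 ER members. TGATGNAA, bound by ATF4 with C/EBP partners, stood in Chac1, Herpud1 and Trib3 and in 4.51% of all genes, and the unfolded protein response element TGACGTG in Hspa5 and in 2.22% of all genes.

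Levels are log2 signals relative to the 75th percentile of the array's probes, so 0 is that percentile, and levels of different probes cannot be set against each other. Changes are given on the log2 scale as one group's mean minus the other's, ± the standard error (SE), and a gene was called at a limma adjusted p under 0.05 over all 14063 genes tested. The 75th percentile of the signal itself was higher on lactating arrays, at 278 to 347, than on nulliparous arrays, at 165 to 284, and 48.5% to 58.6% of probes were well above background. Nulliparous KO replicate 4 stood apart. It lay at 14.5 on the first principal component (53.6% of the variance), beside 27.6 to 41.9 for lactating mice and -46.9 to -39.3 for the other nulliparous mice. Its 75th percentile signal, 284, lay in the lactating range, while those of the other nulliparous arrays reached at most 221. It goes against its nulliparous label on both measures, and whether the label is right was not tested. Each group occupied its own column of the 2 slides, so group and array position cannot be told apart. The single Npr1 probe was well above background on 9 of 16 arrays (3 of 4 lactating KO, 3 of 4 lactating WT, 2 of 4 nulliparous KO and 1 of 4 nulliparous WT), too dim to check the genotype labels.

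Cell type markers also moved with lactation. Macrophage markers were higher in lactation for 7 of 8 genes in either genotype, with summed linear levels, in multiples of the 75th percentile, of 55.0 to 65.7 in lactating KO, 47.9 to 55.2 in lactating WT, 22.4 to 44.2 in nulliparous KO and 25.0 to 29.6 in nulliparous WT mice. The summed cardiomyocyte markers were 4820 to 5553 in lactating KO, 5541 to 6055 in lactating WT, 5937 to 8312 in nulliparous KO and 6445 to 7546 in nulliparous WT mice, with all 8 genes above background throughout. The single genes were split: in lactation 3 were called higher and 3 lower in WT, and 2 higher and 5 lower in KO mice. Nulliparous KO replicate 4 gave the highest macrophage sum (44.2) and the lowest cardiomyocyte sum (5937) of its group. Of the erythroid markers tested, 3 of 3 were higher in lactation in KO and 2 of 3 in WT mice, and these 3 summed to 415 to 570 in lactating KO, 380 to 497 in lactating WT, 260 to 312 in nulliparous KO and 247 to 316 in nulliparous WT mice. Proliferation genes were higher for 5 of 5 tested in KO and 4 of 5 in WT mice. These 5 summed to 12.46 to 17.31 in lactating KO, 12.94 to 16.13 in lactating WT, 4.94 to 14.26 in nulliparous KO and 6.38 to 8.05 in nulliparous WT mice. Fibroblast markers were higher for 5 of 8 in KO and 4 of 8 in WT mice, with 1 lower in WT, while their sums overlapped, at 493 to 571 in lactating KO, 486 to 541 in lactating WT, 500 to 601 in nulliparous KO and 528 to 586 in nulliparous WT mice. Adipocyte markers moved with genotype: all 3 tested were lower in lactating KO than in lactating WT mice and 1 of 3 in nulliparous KO than in nulliparous WT mice. In lactation 1 of the 3 was higher in WT and 2 were lower in KO mice. These 3 summed to 0.273 to 0.381 in lactating KO, 3.13 to 8.48 in lactating WT, 0.605 to 1.48 in nulliparous KO and 2.80 to 4.95 in nulliparous WT mice. Plasma cell markers, from cells rich in ER, summed to 0.968 to 1.21 in lactating KO, 1.03 to 1.38 in lactating WT, 0.908 to 1.18 in nulliparous KO and 0.937 to 1.43 in nulliparous WT mice. Of the atrial myocyte markers tested, 2 of 3 were lower in lactation in WT and 3 of 3 in KO mice. These 3 summed to 2.80 to 3.49 in lactating KO and 3.07 to 3.85 in lactating WT mice. In nulliparous mice they summed to 2.68 to 23.3 in KO and 6.69 to 11.6 in WT. Only 1 of the atrial markers was above background on all 16 arrays. Bmp10 of atrial myocytes, Cd8a of T cells and Lep of adipocytes were above background on no array. The part of cell composition in the differences below was not tested, and in bulk tissue fewer cells of a type and less RNA per cell cannot be told apart.

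In WT ventricles, HSP10, HSP60, HSP110, the inducible HSP90 and 3 small heat shock proteins were among the transcripts that were higher in lactation, while most ER members did not pass the test and GRP94 was lower. Of the 35 members, 13 were called higher and 1 lower in lactating than in nulliparous WT mice, beside 31.8% of all genes called higher and 18.5% called lower. The cytosolic members gave 8 higher and none lower of 13, both mitochondrial members were higher, and the ER members gave 3 higher and 1 lower of 20. The median change was 0.60 over the 13 cytosolic members and 0.08 over the 20 ER members, against 0.10 over all genes tested. For the cytosolic and mitochondrial members together the median was 0.51 on slide 1 and 0.68 on slide 2, and for the ER members 0.09 and 0.12. With quantile normalization the ER median was -0.03, and 12 members were called higher and 3 lower. Centring on the array median instead raised the median of all genes to 0.28 and gave 19 members higher and 1 lower (6054 of the 7542 genes called were then higher, against 4468 of 7072). The 4 contrasts between pairs of groups share arrays, so their values for a gene are not independent.

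**Figure D1:**
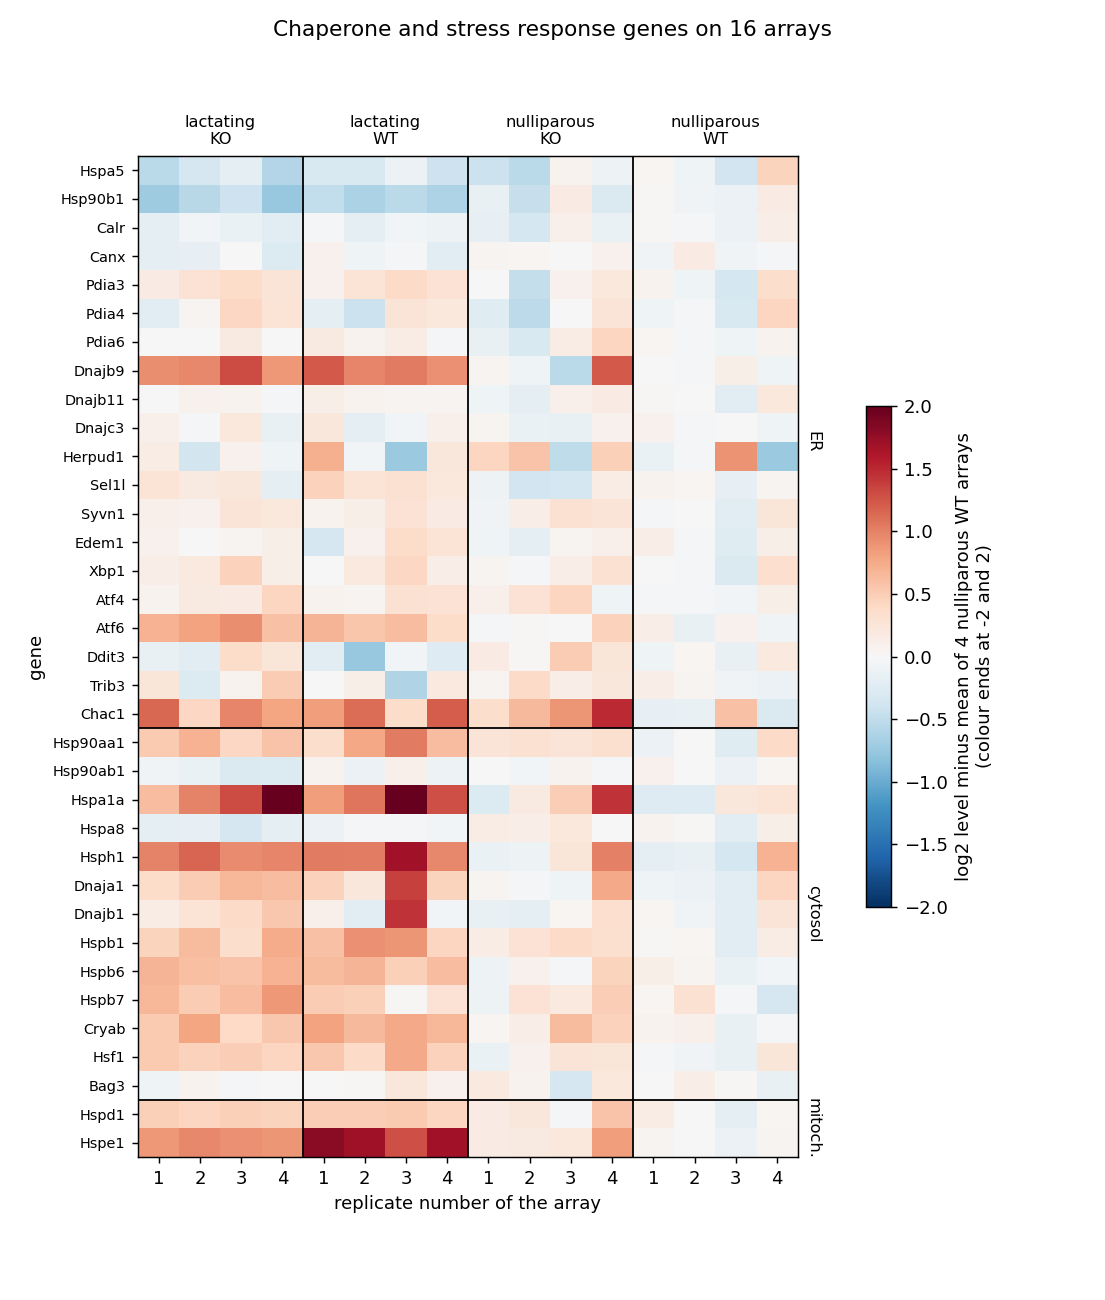
Log2 level of each member on each array minus the mean of the 4 nulliparous WT arrays (colour), with genes in rows by compartment and arrays in columns by group and replicate number. The cytosolic and mitochondrial rows are mostly red in both lactating groups, nulliparous KO replicate 4 resembles them in part, and lactating WT replicate 3 is the reddest array for several HSP70 and J-domain genes.

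Mitochondrial HSP10 had the smallest adjusted p of the members in this comparison. Hspe1, the lid of the mitochondrial chaperonin, measured 5.63, 5.71, 5.67 and 5.65 in lactating KO and 6.57, 6.45, 6.05 and 6.43 in lactating WT mice. In nulliparous mice it measured 4.93, 4.94, 4.98 and 5.59 in KO and 4.82, 4.76, 4.65 and 4.81 in WT. All lactating WT arrays lay above all others, the lactating KO arrays lay between them and the nulliparous WT arrays without overlap, and nulliparous KO replicate 4 came just under the lowest lactating KO array. The rise in lactating over nulliparous WT mice was 1.61 ± 0.14, or 3.06-fold (adjusted p = 1.67e-05). It was 1.72 on slide 1 and 1.51 on slide 2.

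Hspd1, which forms the cage itself, moved less. It measured 6.56, 6.52, 6.56 and 6.53 in lactating KO and 6.58, 6.58, 6.61 and 6.51 in lactating WT mice. In nulliparous mice it was 6.24, 6.30, 6.04 and 6.65 in KO and 6.23, 6.07, 5.90 and 6.11 in WT. All 4 lactating WT values exceeded all 4 nulliparous WT values, and the highest value of all was nulliparous KO replicate 4. The difference in WT was 0.49 ± 0.11 (adjusted p = 0.00207). Both genes that share the printed promoter window rose in WT, with 95% intervals of 1.32 to 1.91 for Hspe1 and 0.26 to 0.72 for Hspd1.

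Among the large cytosolic chaperones, 4 of 7 tested rose in lactating WT ventricles and none fell. Hsph1, the HSP110 that exchanges nucleotide on HSP70, measured 3.65, 3.63, 4.28 and 3.57 in lactating WT and 2.42, 2.46, 2.26 and 3.31 in nulliparous WT mice. The groups did not overlap, and each held 1 array well above its other 3. The difference was 1.17 ± 0.26 (adjusted p = 0.00207). Hsp90aa1, the stress-inducible cytosolic HSP90, measured 4.27, 4.70, 4.96 and 4.54 in lactating WT and 3.81, 3.92, 3.68 and 4.31 in nulliparous WT mice. The groups overlapped by 1 array on either side, with a rise of 0.69 ± 0.14 (adjusted p = 0.00139).

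The inducible HSP70 rested on 1 mouse. Hspa1a measured -1.90, -1.67, 2.00 and -1.45 in lactating WT and -3.00, -2.99, -2.51 and -2.47 in nulliparous WT mice, a difference of 1.99 ± 0.79 (adjusted p = 0.0483). All lactating WT values were above the nulliparous ones, but lactating WT replicate 3 lay far above the rest, and without it the difference was 1.07 (adjusted p = 0.155). The call was also lost without any 1 of the nulliparous WT arrays, among others, and in 14 of 30 alternatives in all. Dnaja1, a J-domain partner of HSP70, measured 4.66, 4.43, 5.57 and 4.65 in lactating WT against 4.12, 4.08, 3.98 and 4.64 in nulliparous WT mice. Its rise of 0.62 ± 0.24 (adjusted p = 0.0407) became 0.37 (adjusted p = 0.137) without the same replicate, and it did not pass without nulliparous WT replicate 1, 2 or 3 either.

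That array, lactating WT replicate 3, was the highest of all 16 for 8 of the 13 cytosolic members: Hsp90aa1, Hsp90ab1, Hspa1a, Hsph1, Dnaja1, Dnajb1, Hsf1 and Bag3. It also had the highest summed pericyte and smooth muscle markers (106) and mesothelial markers (7.04) and the lowest summed endothelial markers (341) of all 16 arrays, and the lowest cardiomyocyte sum of its group (5541). Their part in its values was not tested. Dnajb1, the J-domain protein whose transcript is induced with HSP70, was at 4.79 there and at 3.12 to 3.45 on the other 3 lactating WT arrays, beside 3.12 to 3.61 in nulliparous WT mice. Its change was 0.32 ± 0.28 with that array and -0.05 without it, and neither passed the test. The lactating KO group held a similar single value, since Hspa1a was 0.99 in replicate 4 and -2.13, -1.74 and -1.43 in the other 3.

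The constitutive cytosolic chaperones did not pass the test in WT. Hsp90ab1 changed by -0.02 ± 0.08, with a 95% interval of -0.19 to 0.15, and Hspa8, the constitutive HSC70, by -0.06 ± 0.08, with an interval of -0.23 to 0.12. Of the regulators, Hsf1, the heat shock transcription factor, rose by 0.54 ± 0.11 (adjusted p = 0.0012). It measured 2.75, 2.61, 2.98 and 2.68 in lactating WT and 2.19, 2.16, 2.08 and 2.46 in nulliparous WT mice, without overlap. Bag3, the co-chaperone that links HSP70 to small heat shock proteins in muscle, changed by 0.09 ± 0.11 (adjusted p = 0.527).

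The small heat shock proteins, which bind unfolding sarcomere proteins, were higher in lactating WT mice for 3 of 4. Cryab (αB-crystallin) measured 9.50, 9.35, 9.47 and 9.37 in lactating WT and 8.77, 8.80, 8.55 and 8.69 in nulliparous WT mice. Hspb1 (HSP25 in mouse) measured 8.10, 8.43, 8.38 and 7.94 in lactating WT, against 7.52, 7.55, 7.31 and 7.66 in nulliparous WT mice. Hspb6 (HSP20) measured 8.55, 8.61, 8.40 and 8.54 in lactating WT, against 8.05, 7.99, 7.80 and 7.87 in nulliparous WT mice. None of these 3 genes had an overlap between the 2 groups. Their rises were 0.72 ± 0.12 for Cryab, 0.70 ± 0.12 for Hspb1 and 0.60 ± 0.11 for Hspb6 (adjusted p = 0.000432, 0.000436 and 0.00053). Hspb7, the cardiovascular small heat shock protein, changed by 0.33 ± 0.15 (adjusted p = 0.09), and passed without lactating WT replicate 3, at 0.42 (adjusted p = 0.0405), or without nulliparous WT replicate 2, at 0.43 (adjusted p = 0.0379).

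Of the ER chaperones and folding enzymes, 1 of 10 was called higher and 1 lower in lactating WT mice. Hsp90b1 (GRP94), the ER member of the HSP90 family, measured 5.85, 5.71, 5.79 and 5.71 in lactating WT and 6.36, 6.27, 6.21 and 6.50 in nulliparous WT mice. The groups were apart by more than their spread, and the fall was -0.57 ± 0.12 (adjusted p = 0.00154), with -0.54 on slide 1 and -0.60 on slide 2. Hspa5 (BiP), the ER member of the HSP70 family, measured 6.63, 6.63, 6.82 and 6.52 in lactating WT, against 6.98, 6.85, 6.55 and 7.37 in nulliparous WT mice. Those groups overlapped at 1 nulliparous array, and the difference of -0.29 ± 0.17 did not pass (adjusted p = 0.169, interval -0.65 to 0.07), whereas without that array, nulliparous WT replicate 3, it was -0.42 (adjusted p = 0.0494).

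The other lumenal genes differed by less. The lectin chaperones Calr and Canx changed by -0.09 ± 0.09 and -0.06 ± 0.08, and the disulfide isomerases Pdia3, Pdia4 and Pdia6 by 0.26 ± 0.15, -0.03 ± 0.21 and 0.09 ± 0.13. The BiP co-chaperones Dnajb11 and Dnajc3 changed by 0.07 ± 0.10 and 0.03 ± 0.10. None of these 7 passed. Dnajb9 (ERdj4), an IRE1-dependent co-chaperone of BiP, was the exception, at 2.45, 2.21, 2.27 and 2.14 in lactating WT and 1.22, 1.21, 1.34 and 1.14 in nulliparous WT mice. Its rise of 1.04 ± 0.26 (adjusted p = 0.0044) belongs to 1 of 2 probes that moved in opposite directions, as given further on. So of the 7 members with the ER element in their window, 1 was called in WT (Hsp90b1, lower), and their changes ran from -0.57 to 0.16.

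The genes of ER-associated degradation were not called. Sel1l, the scaffold of the HRD1 ubiquitin ligase, was closest, at 1.34, 1.15, 1.19 and 1.08 in lactating WT and 0.95, 0.92, 0.71 and 0.93 in nulliparous WT mice, a difference of 0.31 ± 0.13 (adjusted p = 0.0546). Its groups did not overlap, and it passed without lactating KO replicate 4 or nulliparous KO replicate 4 (adjusted p = 0.0347 and 0.0258). Syvn1 (the HRD1 ligase), Edem1 (which marks misfolded glycoproteins) and Herpud1 (a membrane component of the complex) changed by 0.16 ± 0.10, 0.10 ± 0.13 and 0.04 ± 0.35. Herpud1 was scattered, spanning 4.69 to 6.33 among nulliparous WT mice alone.

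Of the 6 stress response regulators, Atf6 and Chac1 rose in lactating WT mice. Atf6, the membrane-bound sensor that is cleaved to release a transcription factor, measured 1.57, 1.45, 1.51 and 1.27 in lactating WT and 1.03, 0.75, 0.98 and 0.83 in nulliparous WT mice, with no overlap. The rise was 0.55 ± 0.12 (adjusted p = 0.00171). Chac1, an ATF4 target that degrades glutathione, measured 2.49, 2.76, 2.01 and 2.86 in lactating WT against 1.49, 1.50, 2.24 and 1.36 in nulliparous WT mice. Its rise of 0.88 ± 0.26 (adjusted p = 0.0122) came with 1 overlapping array. The other regulators did not pass: Xbp1, the factor spliced by IRE1, changed by 0.19 ± 0.13, Atf4 by 0.18 ± 0.11, Ddit3 (CHOP, an ATF4 target) by -0.32 ± 0.17 and Trib3, a pseudokinase induced by ATF4 and CHOP, by -0.07 ± 0.17.

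**Figure D2:**
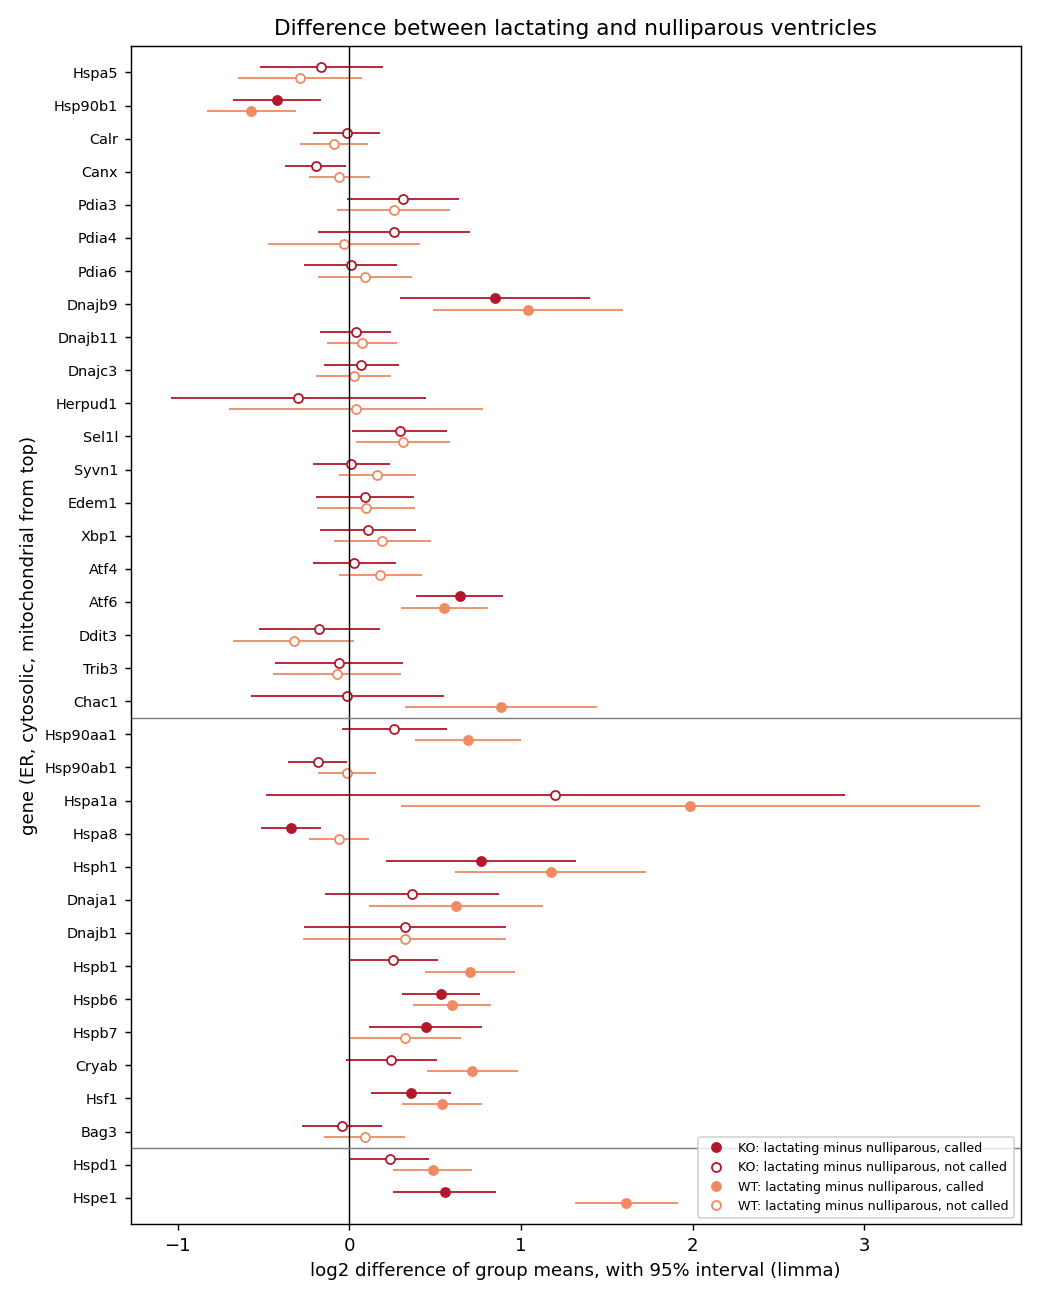
Log2 difference between lactating and nulliparous ventricles for each member, in KO (red, upper of each pair) and WT mice (orange, lower), with 95% intervals from limma; filled points were called at adjusted p under 0.05. In WT 13 members were called higher and 1 lower, in KO 7 higher and 2 lower, and most ER intervals include 0.

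In KO ventricles the same comparison gave 7 members called higher and 2 lower in lactating than in nulliparous mice, beside 25.5% of all genes called higher and 18.6% called lower. Those higher were Hspe1, Hsph1, Hspb6, Hspb7, Hsf1, Dnajb9 and Atf6, and those lower were Hsp90b1 and Hspa8. By compartment, 4 of 13 cytosolic members were higher and 1 lower, 1 of 2 mitochondrial members was higher, and 2 of 20 ER members were higher and 1 lower. The median change was 0.32 over the cytosolic members and 0.02 over the ER members, against 0.06 over all genes. For the cytosolic and mitochondrial members together it was 0.42 on slide 1 and 0.21 on slide 2, and for the ER members 0.14 and 0.01. With quantile normalization the ER median was -0.02, and centring on the array median gave 13 members higher and none lower, with 5306 of 6701 called genes higher in place of 3591 of 6203. Without nulliparous KO replicate 4, which lay among or near the lactating mice for many members, 11 were called higher and 2 lower. All 9 named above were among them, at 1.02 for Hsph1, 0.65 for Hspb6, 0.53 for Hspb7, 0.40 for Hsf1, 1.20 for Dnajb9, 0.76 for Atf6, -0.46 for Hsp90b1, -0.38 for Hspa8 and 0.72 for Hspe1, and Hspd1 (0.35), Sel1l (0.40), Dnaja1 (0.56) and Pdia3 (0.40) were called in addition. That array lay above all 3 other nulliparous KO arrays for 12 of 20 ER, 8 of 13 cytosolic and both mitochondrial members. The share of all genes called without that array is not given here, so the added calls cannot be set against it.

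Hspe1 rose by 0.56 ± 0.14 in lactating over nulliparous KO mice (adjusted p = 0.00622). Hspd1 changed by 0.23 ± 0.11 (adjusted p = 0.0894) with that array and by 0.35 (adjusted p = 0.00321) without it. Hsph1 measured 3.60, 3.77, 3.56 and 3.58 in lactating KO and 2.48, 2.50, 2.85 and 3.61 in nulliparous KO mice. It was higher by 0.77 ± 0.26 (adjusted p = 0.0274), with the highest nulliparous value inside the lactating range. The call was lost without nulliparous KO replicate 1, 2 or 3 or lactating KO replicate 2 (adjusted p of 0.0534 to 0.0867). It was also lost with the mean of its probes (adjusted p = 0.113).

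Hspb6 measured 8.60, 8.53, 8.51 and 8.62 in lactating KO and 7.82, 8.01, 7.91 and 8.38 in nulliparous KO mice, without overlap, and rose by 0.53 ± 0.11 (adjusted p = 0.00183). Hspb7 measured 6.28, 6.13, 6.24 and 6.49 in lactating KO, against 5.52, 5.91, 5.82 and 6.11 in nulliparous KO mice, and rose by 0.44 ± 0.15 (adjusted p = 0.0295). Both small heat shock proteins thus stood above every nulliparous KO array, replicate 4 included. The Hspb7 call was lost without nulliparous KO replicate 1 or 3 or lactating KO replicate 1 or 4. Cryab and Hspb1 changed by 0.25 ± 0.12 and 0.26 ± 0.12 and did not pass (adjusted p = 0.12 and 0.1). Cryab did pass in 7 of 30 alternatives. Among these were quantile normalization, at 0.58 (adjusted p = 0.000641), the mean of its probes, at 0.71 (adjusted p = 0.00566), and the fit without nulliparous KO replicate 3, at 0.35 (adjusted p = 0.0281). It measured 0.57 on slide 1 and -0.08 on slide 2.

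The inducible HSP90 and HSP70 and Dnaja1 did not pass in KO mice. Hsp90aa1 differed by 0.26 ± 0.14 (adjusted p = 0.151), although its 4 lactating KO values (4.33 to 4.63) all exceeded the nulliparous KO values (4.18 to 4.25). Hspa1a differed by 1.20 ± 0.79 (adjusted p = 0.23), with an interval of -0.49 to 2.89, and Dnaja1 by 0.37 ± 0.24 (adjusted p = 0.222). Hsf1 rose by 0.36 ± 0.11 (adjusted p = 0.0157), and was at 0.28 (adjusted p = 0.0584) without nulliparous KO replicate 1. Dnajb1 differed by 0.32 ± 0.28 and Bag3 by -0.04 ± 0.11.

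Of the 2 constitutive cytosolic chaperones, Hspa8 was called lower in lactating KO mice and Hsp90ab1 did not pass. Hsp90ab1 measured 8.17, 8.11, 7.96 and 7.97 in lactating KO and 8.23, 8.19, 8.32 and 8.20 in nulliparous KO mice, without overlap, and its difference of -0.18 ± 0.08 did not pass (adjusted p = 0.0715). Hspa8 measured 8.70, 8.72, 8.55 and 8.68 in lactating KO and 9.03, 9.02, 9.09 and 8.88 in nulliparous KO mice. Those groups did not overlap, and it was lower by -0.34 ± 0.08 (adjusted p = 0.00458), while another of its probes moved the opposite way. The call was lost when arrays were centred on their median, at -0.16 (adjusted p = 0.146), and on slide 2 alone, at -0.37 (adjusted p = 0.354).

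On the ER side of the KO comparison, Hsp90b1 measured 5.63, 5.79, 5.92 and 5.58 in lactating KO, against 6.18, 5.88, 6.50 and 6.05 in nulliparous KO mice. It was lower by -0.42 ± 0.12 (adjusted p = 0.0118), with 1 overlapping array, and by -0.24 (adjusted p = 0.127) when arrays were centred on their median. Atf6 measured 1.60, 1.70, 1.82 and 1.48 in lactating KO, against 0.87, 0.92, 0.88 and 1.36 in nulliparous KO mice, and rose by 0.64 ± 0.12 (adjusted p = 0.00129). Dnajb9 measured 2.16, 2.18, 2.53 and 2.09 in lactating KO, against 1.28, 1.14, 0.70 and 2.45 in nulliparous KO mice, where replicate 4 lay inside the lactating range. Its rise of 0.85 ± 0.26 (adjusted p = 0.0167) was lost without nulliparous KO replicate 2 or 3.

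Hspa5 changed by -0.16 ± 0.17 and Canx by -0.20 ± 0.08, neither passing (adjusted p = 0.452 and 0.0674). Without lactating KO replicate 3 Canx passed, at -0.24 (adjusted p = 0.0397). Chac1, called in WT, measured 2.80, 2.07, 2.63 and 2.44 in lactating KO and 2.00, 2.31, 2.53 and 3.15 in nulliparous KO mice. The groups overlapped throughout, with a difference of -0.01 ± 0.26.

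The remaining ER members were not called in KO mice either. Sel1l measured 1.15, 1.05, 1.11 and 0.68 in lactating KO, against 0.77, 0.49, 0.53 and 1.03 in nulliparous KO mice. Its difference of 0.29 ± 0.13 did not pass (adjusted p = 0.0769), and it passed without nulliparous KO replicate 4 or lactating KO replicate 4 (0.40 in either case, adjusted p = 0.0107 and 0.0225). Ddit3, at 0.90, 0.85, 1.42 and 1.29 in lactating KO and 1.22, 1.07, 1.57 and 1.30 in nulliparous KO mice, overlapped between the groups. Its change was -0.17 ± 0.17, and those of the other 12, Calr, Pdia3, Pdia4, Pdia6, Dnajb11, Dnajc3, Herpud1, Syvn1, Edem1, Xbp1, Atf4 and Trib3, ran between -0.30 for Herpud1 and 0.31 for Pdia3.

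**Figure D3:**
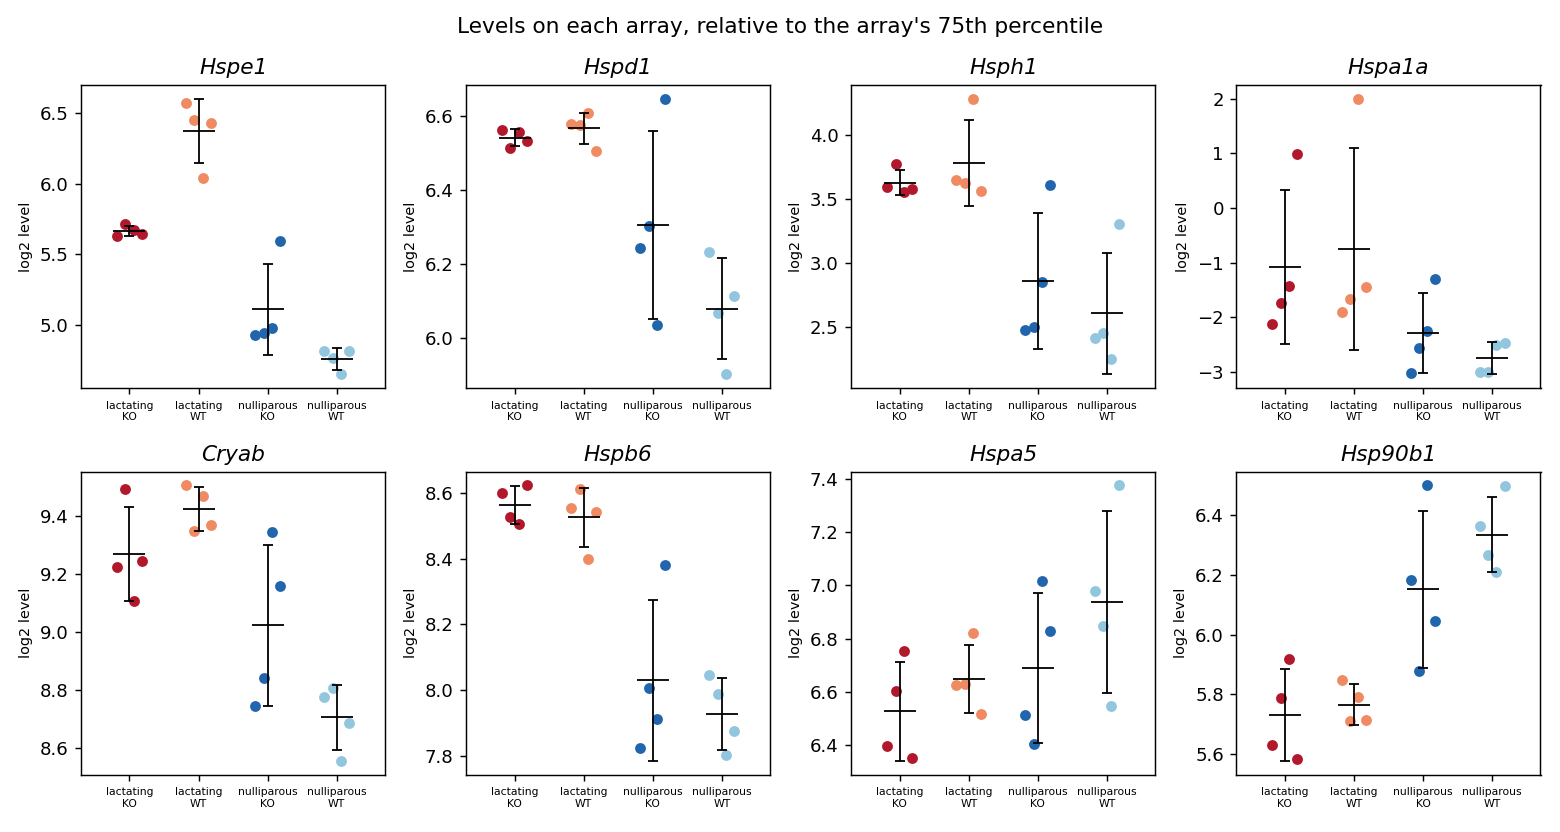
Log2 levels of 8 members on each array (points) with the mean and SD of the 4 arrays of a group (bar and whiskers), groups ordered lactating KO, lactating WT, nulliparous KO and nulliparous WT. Hspe1 separates all lactating WT arrays from the lactating KO arrays, Hspa1a has 1 high array in each lactating group, and Hsp90b1 is lower in both lactating groups.

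No member was called between genotypes in either state. Between lactating KO and lactating WT mice 0 of 35 members passed in limma, beside 0.199% of all genes called. At an unadjusted p under 0.05 there were 4 members, beside 1285 of all 14063 genes. Between nulliparous KO and nulliparous WT mice 0 of 35 passed, beside 0.0996%. Here 4 had an unadjusted p under 0.05, beside 1214 of all genes. For the interaction, the lactation difference in KO minus that in WT, 0 of 35 passed, beside 0.0924%. Here 5 had an unadjusted p under 0.05, beside 896 of all genes. Between genotypes in lactation the median difference was -0.03 over the ER members and -0.14 over the cytosolic members, against -0.0004 over all genes. In nulliparous mice it was 0.04 and 0.18, against 0.05 over all genes, with 12 of 13 cytosolic members above 0. Nulliparous KO replicate 4 had the highest cytosolic median of its group. Without it the nulliparous medians were -0.06 over the ER members and 0.07 over the cytosolic members, with 9 of 13 cytosolic members above 0.

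Hspe1 was nearest to a genotype call. In lactating mice it was lower in KO, with no overlap, by -0.71 ± 0.14, or 1.64-fold (adjusted p = 0.0638). The interaction was -1.06 ± 0.20 (adjusted p = 0.0852), that is, the lactation difference was smaller in KO on the log2 scale. Both crossed the threshold in some alternatives. Without nulliparous KO replicate 4 the adjusted p was 0.00303 for KO against WT in lactation and 0.0317 for the interaction, and without lactating WT replicate 3 it was 0.027 and 0.0304. With array weights, in which nulliparous KO replicate 4 counted 0.157, the values were 0.000919 and 0.00451. Without lactating KO replicate 4 it was 0.23 and 0.185. On slide 1 and slide 2 the lactating difference was -0.84 and -0.58. In nulliparous mice Hspe1 was 0.35 ± 0.14 higher in KO (adjusted p = 0.528), and 0.19 without replicate 4.

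Hspd1, read on the other side of the same window, differed by -0.02 ± 0.11 between lactating KO and lactating WT mice, with an interval of -0.26 to 0.21. The difference between the 2 genes was not tested. The other members with an unadjusted p under 0.05 in lactation were Ddit3, at 0.38 ± 0.17, Hspb7, at 0.34 ± 0.15, and Hsp90ab1, at -0.18 ± 0.08 (adjusted p = 0.499, 0.531 and 0.521).

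In nulliparous mice the members with an unadjusted p under 0.05 were Chac1, Cryab, Hspb1 and Hspe1. Chac1 was 0.85 ± 0.26 higher in KO (adjusted p = 0.397), with nulliparous WT replicate 3, at 2.24, inside the KO range, and 0.63 higher without nulliparous KO replicate 4. Cryab measured 8.74, 8.84, 9.34 and 9.16 in nulliparous KO and 8.77, 8.80, 8.55 and 8.69 in nulliparous WT mice. Hspb1 measured 7.66, 7.80, 7.89 and 7.83 in nulliparous KO against 7.52, 7.55, 7.31 and 7.66 in nulliparous WT mice, with no overlap. The differences were 0.32 ± 0.12 for Cryab and 0.29 ± 0.12 for Hspb1 (adjusted p = 0.527 and 0.542), or 0.27 for both without nulliparous KO replicate 4, and for Cryab 0.00 on slide 1 and 0.63 on slide 2. For the interaction, those with an unadjusted p under 0.05 beside Hspe1 were Cryab (-0.47 ± 0.18), Hspb1 (-0.45 ± 0.17), Hspa8 (-0.28 ± 0.12) and Chac1 (-0.89 ± 0.37), with adjusted p of 0.671 to 0.716. All 5 were negative, and the median interaction over all genes tested was negative too, at -0.06.

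**Figure D4:**
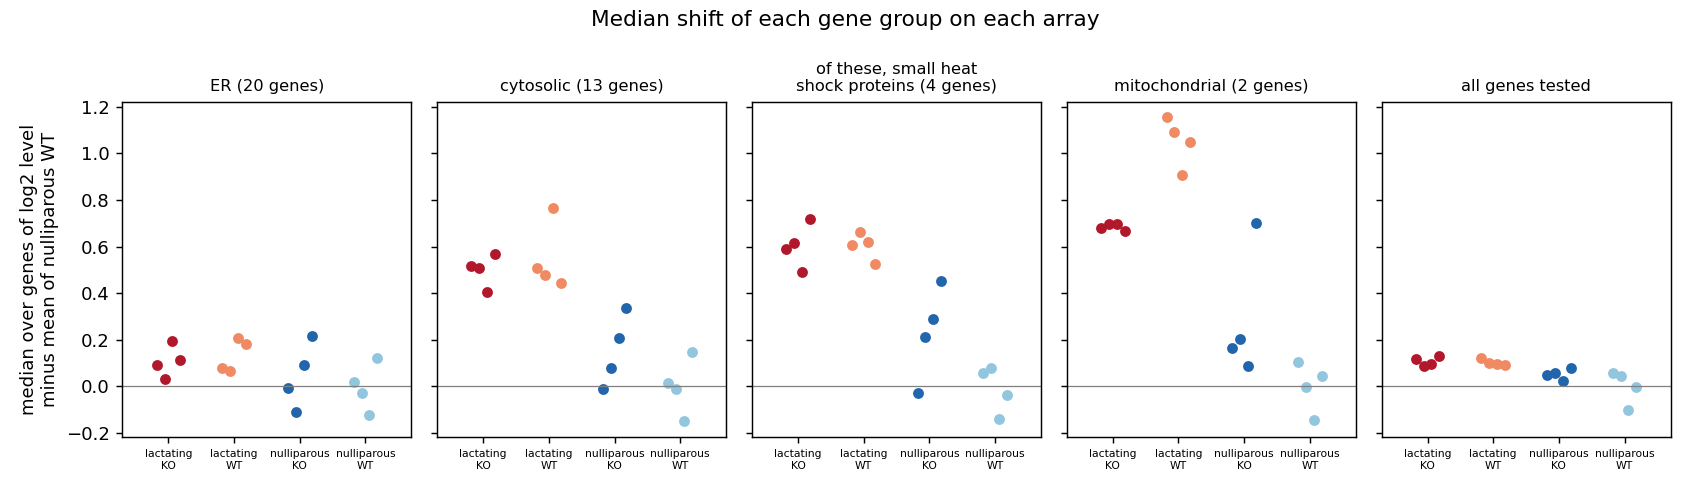
Median over the genes of a group of the log2 level minus the mean of nulliparous WT mice, 1 point per array, for ER, cytosolic, small heat shock and mitochondrial members and for all genes tested. The cytosolic medians of both lactating groups lie above all nulliparous arrays, the ER medians overlap between all groups, and nulliparous KO replicate 4 is the highest nulliparous array in each of the 4 member panels.

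The medians were also taken array by array. Measured from the mean of nulliparous WT mice, the cytosolic median was 0.52, 0.51, 0.41 and 0.57 in lactating KO and 0.51, 0.48, 0.76 and 0.44 in lactating WT mice. In nulliparous mice it was -0.01, 0.08, 0.21 and 0.34 in KO and 0.02, -0.01, -0.15 and 0.15 in WT. The lactating arrays all lay above the nulliparous ones. The ER median was 0.09, 0.03, 0.19 and 0.11 in lactating KO, 0.08, 0.06, 0.21 and 0.18 in lactating WT, -0.01, -0.11, 0.09 and 0.22 in nulliparous KO and 0.02, -0.03, -0.12 and 0.12 in nulliparous WT mice. It overlapped between all 4 groups, and the median of all genes tested was 0.09 to 0.13 on every lactating array. The difference between the compartments was not tested.

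Several members were read by more than 1 probe, and for some of them the probes disagreed. The 3 Hspe1 probes all read a rise: the lactation difference in WT was 1.61, 1.32 and 1.74, in KO 0.56, 0.72 and 0.56, and KO minus WT in lactation -0.71, -0.34 and -0.86. The second Dnajb9 probe, in contrast, was lower in lactating mice, by -0.96 in WT and -0.92 in KO, where the brighter one rose. With the mean of both probes the Dnajb9 difference was 0.04 in WT (adjusted p = 0.793) and -0.04 in KO (adjusted p = 0.827).

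Hspa8 changed by -0.06, 1.33 and 0.18 on its 3 probes in WT and by -0.34, 0.86 and -0.08 in KO. With their mean it was called higher in WT at 0.49 (adjusted p = 0.000908) and not called in KO at 0.15 (adjusted p = 0.218). Dnaja1 read 0.62 on the brightest probe and -0.29 on the other in WT, and 0.37 and -0.47 in KO. With their mean it was not called in WT, at 0.17 (adjusted p = 0.479), and its WT call was lost in 9 of 30 alternatives in all. For Atf4 the dimmer probe differed by 1.13 in WT and 0.91 in KO, so the mean of probes was called in both, at 0.66 and 0.47 (adjusted p = 0.000236 and 0.00282). Cryab and Hsph1 kept their direction: Cryab read 0.72 and 1.87, and Hsph1 1.17 and 0.52, in WT. In KO Cryab read 0.25 and 1.18, and Hsph1 0.77 and 0.23. With the mean of probes Cryab was called in KO, at 0.71 (adjusted p = 0.00566), and Hsph1 was not, at 0.50 (adjusted p = 0.113). Pdia6 read 0.09 on the brightest probe and 0.30, without overlap of the groups, on the other in WT. In KO it read 0.01 and 0.30, and it was not called with the mean of probes in either genotype. Which transcript forms these probes read was not tested.

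**Figure D5:**
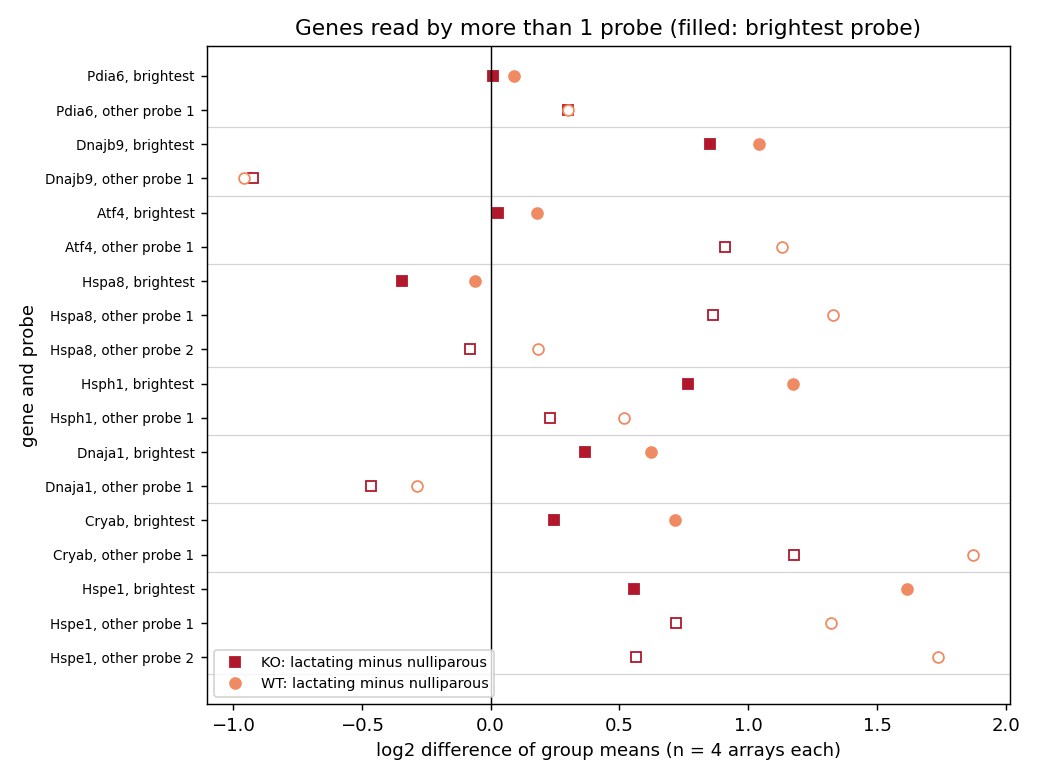
Log2 difference between lactating and nulliparous mice on each probe of the members with more than 1 probe above background, in KO (squares) and WT mice (circles); filled symbols are the brightest probe. The Hspe1 probes lie together on the positive side in each genotype, and the 2 Dnajb9 probes lie on opposite sides of 0.

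Other genes of the same pathways, listed beside the members, were read in the same fits. Of 39 cytosolic companions (TCP1 ring chaperonin subunits, further HSP70 and J-domain proteins and co-chaperones), 20 were called higher and 3 lower in lactating than in nulliparous WT mice, with a median change of 0.38, beside 31.8% of all genes called higher and 18.5% called lower. This list was drawn up with Serpinh1 and Hspa13 in it, whose products are found in the ER, so it is not purely cytosolic. Of 15 mitochondrial companions 10 were higher and 1 lower, with a median of 0.54. Of 25 ER companions 8 were higher and 4 lower, with a median of 0.06, and of 23 stress response companions 7 were higher and 3 lower, with a median of 0.18. The shares of ER and stress response companions called higher were thus near that of all genes. In KO mice the counts were 17 higher and 5 lower, 7 and 2, 6 and 4, and 7 and 3 in the same order of lists, beside 25.5% of all genes called higher and 18.6% called lower. No companion was called between genotypes in either state or for the interaction.

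Among the companions called in WT, Grpel1, the nucleotide exchange factor of mitochondrial HSP70, rose most, averaging 5.82 ± 0.17 in lactating WT and 3.62 ± 0.10 in nulliparous WT mice (SD, n = 4 each). The difference was 2.20 ± 0.32 (adjusted p = 0.000169). Atf3, a stress-induced transcription factor, rose by 2.19 ± 0.56 (adjusted p = 0.00532) and Bag2, an HSP70 co-chaperone, by 1.68 ± 0.22 (adjusted p = 0.0001). Atf3 was scattered, averaging 1.95 ± 1.05 in lactating WT and -0.24 ± 0.34 in nulliparous WT mice (SD). In KO mice it averaged 0.58 ± 0.71 in lactating and 0.69 ± 1.15 in nulliparous animals (SD). The 3 largest falls were in Hsf2, a second heat shock factor, at -0.80 ± 0.16, in Erlec1, an ER lectin of the degradation pathway, at -0.72 ± 0.14, and in Ern1, which encodes the sensor IRE1, at -0.48 ± 0.12 (adjusted p = 0.001, 0.00107 and 0.00449). Hsf1 and Atf6, of the same arms, rose.

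In KO mice Grpel1 averaged 5.78 ± 0.12 in lactating and 4.11 ± 0.96 in nulliparous animals (SD, n = 4 each), a rise of 1.67 ± 0.32 (adjusted p = 0.00145). Bag2 rose by 1.32 ± 0.22 (adjusted p = 0.000808) and Eif2ak2, the RNA-activated kinase of the integrated stress response, by 1.24 ± 0.24 (adjusted p = 0.00154). Hsf2 and Erlec1 fell again, by -0.75 ± 0.16 and -0.72 ± 0.14, and Dnajc7, a J-domain protein that binds both HSP70 and HSP90, by -0.55 ± 0.10 (adjusted p = 0.00241, 0.00173 and 0.00111).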

How the data were processed

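Ventricular RNA of 16 mice was measured, 1 array per mouse, in 4 groups of 4. The deposited intensity values are the Cy3 brightness of each spot, per the file headers, as written by the scanner software (Agilent Feature Extraction, version 10.7.3.1, which the submitters' processing notes name too): background-subtracted and detrended within the array, and not scaled between arrays. The authors' deposited table holds log2 values. They equal the scanner signal after log2, scaling of arrays to a common 75th percentile and subtraction of each probe's nulliparous WT mean (17134 bright probes; median difference -0.0187 to 0.0261; column medians -0.382 to 0.0318), so a positive value is higher than in nulliparous WT mice.

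Scanner intensities were put on the log2 scale and, with spots of 1 probe averaged, shifted so that the 75th percentile of an array's non-control probes was 0. Probes were named through their RefSeq accession (27793 of 28167 such probes). The brightest probe stood for a gene. A gene was tested if some group had its probe well above background on each of its arrays (14063 of 21154). Group means were fitted over all 16 arrays with limma 3.58.1 (R 4.3.3), moderated by eBayes, with two-sided tests, 12 residual degrees of freedom and Benjamini-Hochberg adjustment over all genes tested. The fit was tested on simulated data. No spot of a member was saturated. The number of arrays limits the precision. All 36 members are described, and of the companion genes the 3 called with the largest rise and fall in each comparison between pairs of groups. Members, companion lists and cell type markers were chosen with earlier results of these data known, and a list's count is not independent evidence. Alternatives covered background correction, scaling, filter, probe rule, variance model, slides, replicate block, the authors' table and each array left out. For normexp the median spot signal was used.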

Additional observations from a re-analysis of the deposited data

Results flagged for a closer look

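In 13 of 140 sets of 4 arrays (35 members in 4 groups), 1 array lay far from the other 3 by Dixon's criterion, which chance alone meets in about 1 of 20 sets. Lactating WT replicate 3 was high for Hspa1a, at 2.00 where the others lay between -1.90 and -1.45, and for Hsph1, at 4.28 where the others lay between 3.57 and 3.65. Nulliparous KO replicate 4, the array nearest to the lactating mice on the first principal component, was high for Hspe1 (5.59), Dnaja1 (4.96) and Atf6 (1.36), where the other 3 nulliparous KO arrays lay at 4.93 to 4.98, 4.11 to 4.26 and 0.87 to 0.92. Among nulliparous KO arrays, replicate 3 was low for Herpud1, at 4.92 beside 5.86 to 6.01.

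The other sets were single values. In lactating KO mice Pdia6 was 5.27 in replicate 3 beside 5.08 to 5.09. In lactating WT mice replicate 1 was high for Dnajb11 (3.43 beside 3.37 to 3.38) and low for Hspa8 (8.77 beside 8.83 to 8.85). In nulliparous WT mice Chac1 was 2.24 in replicate 3 beside 1.36 to 1.50, Sel1l was 0.708 in the same array beside 0.92 to 0.95, Canx was 5.89 in replicate 2 beside 5.67 to 5.70, and Atf4 was 5.86 in replicate 4 beside 5.70 to 5.72. The source of these values was not tested.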

How the results depend on the processing

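Over all comparisons and 35 members, 5082 of 5215 recomputed values kept their side of the threshold with no called value reversed (283 uncalled ones changed sign), 67 gained and 63 lost a call, and 3 reversed. The reversals came with the mean of a gene's probes: Hspa8 at 0.49 in WT lactation and 0.15 in KO lactation, and Dnajb9 at -0.0361 in KO lactation. In lactating against nulliparous WT mice 14 members were called, and 0 on slide 2 alone (86 of all genes). In KO mice 9 were called, and 0 on slide 2 alone (0 of all genes), 14 with normexp and 16 with array weights. Between KO and WT in lactation and for the interaction, 1 member (Hspe1) was called with eBayes trend and robust and with array weights. With 1 array left out the counts ran from 12 to 15 (lactation, WT), 6 to 13 (lactation, KO), 0 to 1 (genotype in lactation), 0 to 0 (genotype, nulliparous) and 0 to 1 (interaction). The shares of all genes called with normexp, array weights, quantile normalization or an array left out are not given beside the member counts. The median change of ER members in WT was -0.0328 with quantile normalization and 0.26 with median centring (0.046 to 0.126 with 1 array left out). In KO it was 0.20 with median centring and 0.14 on slide 1 (-0.011 to 0.102). That of cytosolic and mitochondrial members was 0.78 with median centring in WT (0.473 to 0.617), and 0.51 with median centring and 0.21 on slide 2 in KO (0.257 to 0.403). Median centring raised the median of all genes to 0.28 in WT and 0.24 in KO, against 0.10 and 0.06. Each slide held 8 arrays. On slide 1 alone the only lactation call lost was that of Hsp90b1 in KO, at -0.32 (adjusted p = 0.0942). Why slide 2 alone gave no call, and the cause of the other differences, was not tested. Mice are independent by the labels. Deviations of same-numbered arrays from their group means correlated at -0.139 to 0.177 (median 0.030, 8 of 24 over 0.1). Those of differently numbered arrays correlated at -0.283 to 0.246 (median -0.010, 10 of 72 over 0.1). Same-numbered arrays also shared a slide and a row on it, so a weak shared deviation by number and one by position cannot be told apart. With the replicate block 14, 9, 0, 0 and 0 members were called, in the order above. The fit on only the groups compared cannot give the interaction, since that uses all 4. Dim probes, such as that of Npr1, limit what can be read near background.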
